A study of Homo sapiens with 12 samples.

Results

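Major histocompatibility complex (MHC) class II molecules and the proteins that load them with peptide were followed at the RNA level in LN229, an established human glioblastoma cell line. The set held 8 genes: HLA-DRA, HLA-DPA1 and HLA-DPB1, which encode chains of the peptide-presenting dimers, CD74, the invariant chain, HLA-DMA and HLA-DMB, the 2 chains of the peptide exchange factor HLA-DM, HLA-DOA, a chain of its inhibitor HLA-DO, and CIITA, the class II transactivator. A gene was taken as measured where a probe set is paired by the platform annotation with its symbol alone. By that rule 7 of the 8 genes were measured, each by 1 probe set, out of 14232 genes in all. HLA-DMA had no such probe set and is described only through a probe set that it shares with HLA-DMB.

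The set was selected on measured values. HLA-DMB was picked for being lower in hypoxia and higher after HIF1A siRNA, and the other genes were put beside it with results of these arrays known. The values of those comparisons are therefore given as a description and no p-value is given for HLA-DMB in them.

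Class II dimers carry peptides from endosomes to the cell surface, where CD4+ T cells read them. The invariant chain CD74 blocks the groove of a new dimer, HLA-DM exchanges its last fragment for a peptide, and HLA-DO restrains HLA-DM. CIITA binds no DNA itself and is recruited to a conserved promoter module, the X and Y boxes, by the RFX, CREB and NF-Y factors that occupy it. Professional antigen-presenting cells express these genes constitutively, whereas many other cells do so after interferon-gamma, and glioma cells can express them.

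All 12 arrays came from LN229 cells transfected with siRNA 24 h after seeding. The oxygen level was changed 48 h after transfection and the cells were harvested 16 h later. Each group held 3 arrays: non-targeting control siRNA at 20% oxygen (normoxia), the same control siRNA at 1% oxygen (hypoxia), HIF1A siRNA at 1% oxygen and HIF2A siRNA at 1% oxygen. HIF1A and EPAS1, the gene of HIF2A, encode the subunits through which hypoxia-inducible factors respond to oxygen. There was no normoxic group with either targeting siRNA, and 1 cell line was used. The labels number the replicates but do not say that they were separate cultures, so SDs, SEs and p-values stand for the spread among these arrays alone, and part or all of that spread may be technical.

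Values are log2 expression, 1 per probe set and array, and a difference of 1 is a 2-fold change. Over the arrays the median of all probe sets lay between 6.49 and 6.82, and arrays of the same group correlated at r between 0.983 and 0.994. The HIF1A transcript averaged 11.5 ± 0.058 (SD, n = 3) in normoxia, 11.5 ± 0.23 in hypoxia, 8.33 ± 0.67 with HIF1A siRNA and 11.3 ± 0.22 with HIF2A siRNA. EPAS1 averaged 8.52 ± 0.089, 9.71 ± 0.13, 8.23 ± 0.32 and 7.12 ± 0.11 in the same order, a difference from hypoxia with control siRNA of -1.48 with HIF1A siRNA and of -2.59 with HIF2A siRNA. Of 7 measured genes listed as a check of HIF activity, HIF1A and EPAS1 included, 6 rose in hypoxia and 7 fell after HIF1A siRNA (limma, adjusted p under 0.05). Of all genes, 3.37% were called higher in hypoxia and 10.2% lower after HIF1A siRNA. HIF1A, itself the target of that siRNA, is among the 7 that fell. Of 10 genes listed as markers of the glioblastoma line, 9 were measured and 7 were above the array median on every array. Fewer class II-expressing cells and less RNA per cell cannot be told apart in these bulk samples.

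The proximal promoters were searched for letters of the X and Y boxes, the module through which CIITA acts on class II genes, and 3 of the 6 genes with a window held both. RefSeq promoter windows (GRCh38.p14, 250 bases before to 50 after a transcript start) were found for 6 of the 8 genes, and were not found for HLA-DRA and CIITA. The letters searched on both strands were an X box core (C, any base, then AGNNACNGA) and a Y box core (ATTGG, or CCAAT on the other strand). The letters were chosen with these sequences in view, so the count of 3 is a description. Other forms of either box were not searched, and a window without a match may still hold one. X letters occur in 3.35% of 35116 promoters, Y letters in 34.6% and both in 1.08%. Stretches around the matches are shown 5′ to 3′ on the gene's strand for the windows that hold the X letters. Those of both HLA-DM chains and of HLA-DOA hold both sets of letters, and that of HLA-DPA1 holds the X letters alone. Capitals mark the matched letters.
HLA-DMB: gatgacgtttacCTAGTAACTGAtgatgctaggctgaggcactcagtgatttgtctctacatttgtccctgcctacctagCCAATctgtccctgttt
HLA-DMA: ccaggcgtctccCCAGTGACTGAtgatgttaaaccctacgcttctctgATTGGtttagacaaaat
HLA-DOA: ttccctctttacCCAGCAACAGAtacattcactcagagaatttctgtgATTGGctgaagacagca
HLA-DPA1: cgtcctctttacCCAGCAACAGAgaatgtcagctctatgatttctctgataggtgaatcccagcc
The stretches lie on the minus strand at chr6:32941034-32941130 for HLA-DMB, chr6:32953160-32953224 for HLA-DMA, chr6:33009642-33009706 for HLA-DOA and chr6:33073698-33073762 for HLA-DPA1.

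The X letters begin 90 bases before the start in HLA-DMB, 115 in HLA-DMA, 103 in HLA-DOA and 101 in HLA-DPA1. In HLA-DMA and HLA-DOA 25 bases separate the X from the Y letters. In HLA-DMB 57 bases separate them and the Y letters run the other way, as CCAAT. Whether these HLA-DMB letters act as a Y box was not tested. Of the remaining windows, those of CD74 and HLA-DPB1 hold Y letters without these X letters, 1 match in CD74 and 2 in HLA-DPB1. A second HLA-DPA1 window, at chr6:33080699-33080998, holds neither set of letters. The stretches around 1 match each are on the minus strand at chr5:150412947-150413005 for CD74 and on the plus strand at chr6:33075849-33075907 for HLA-DPB1.
CD74: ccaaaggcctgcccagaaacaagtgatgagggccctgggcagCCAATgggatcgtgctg
HLA-DPB1: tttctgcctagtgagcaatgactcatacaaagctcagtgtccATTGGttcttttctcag

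The core of the hypoxia response element was searched in the same windows as ACGTG, which is in 21.4% of promoters, and as GCGTG, which is in 36.5%. ACGTG occurred once in HLA-DOA, 214 bases before the start, and once in the second HLA-DPA1 window, 36 bases before its own start. GCGTG occurred once, 160 bases before the start in the HLA-DPA1 window that holds the X letters, outside the stretch shown. Neither was present in the windows of HLA-DMB, HLA-DMA, CD74 or HLA-DPB1. TTCNNNGAA, letters of an interferon-gamma activated site, is in 7.66% of promoters and in none of the 7 windows. A match says only that these letters are present.

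HLA-DMB, the chain of the peptide exchange factor with a probe set of its own, was lowest in hypoxia and highest after HIF1A siRNA. Its values were 8.60, 8.57 and 8.61 in normoxia and 7.70, 7.54 and 7.93 in hypoxia with control siRNA. With HIF1A siRNA they were 9.23, 8.72 and 8.45, and with HIF2A siRNA 8.37, 8.25 and 8.23. The hypoxic control arrays lay below the other 9 arrays, with no overlap, while the HIF1A siRNA arrays overlapped those of normoxia.

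Group means of HLA-DMB were 8.59 ± 0.020 (SD, n = 3) in normoxia, 7.73 ± 0.20 in hypoxia, 8.80 ± 0.40 with HIF1A siRNA and 8.28 ± 0.078 with HIF2A siRNA. Hypoxia minus normoxia was thus -0.87 (SE 0.17), 1.82-fold lower. HIF1A siRNA was 1.08 (SE 0.17) above control siRNA in hypoxia, 2.11-fold higher. In that comparison HLA-DMB ranked 4 among all genes ordered by how much higher they were. With HIF2A siRNA it was 0.56 (SE 0.17) above control siRNA, a 1.47-fold difference that did not pass the test (limma, adjusted p = 0.9999). That test shares its hypoxic control arrays with both comparisons for which HLA-DMB was picked. HLA-DMB with HIF1A siRNA was 0.52 above HIF2A siRNA and 0.21 above normoxia, and these differences were 0.80 and 0.65 after quantile normalization and 0.77 and 0.63 after cyclic loess. Its arrays with that siRNA ranged from 8.45 to 9.23, the widest of the 4 groups for this gene, and without replicate 1 the difference from normoxia was -0.0064.

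**Figure D1:**
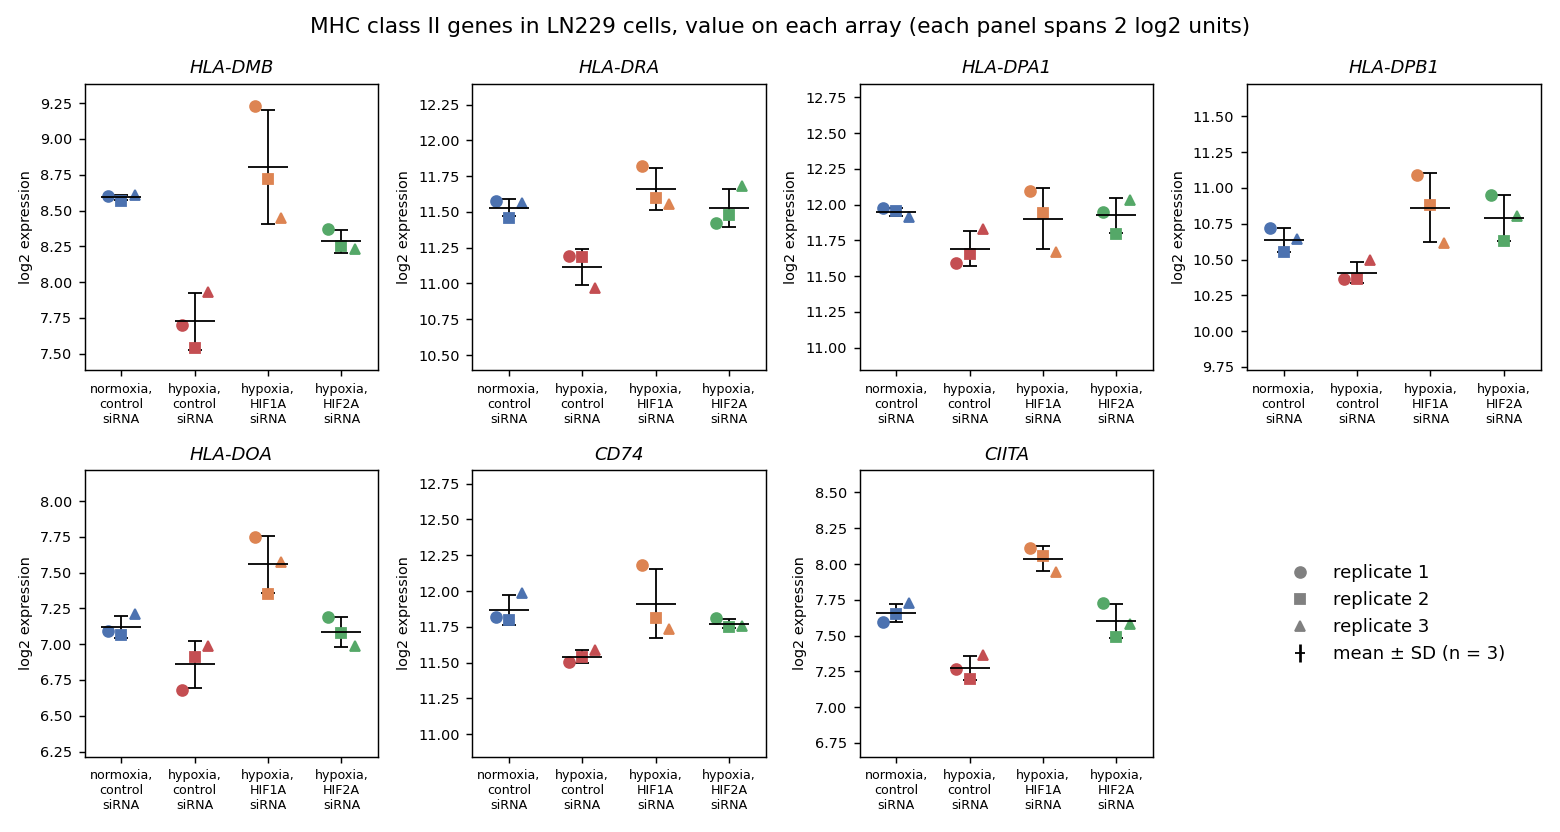
Log2 expression (y axis) of the 7 class II genes on each of 12 arrays, by group (x axis); markers are replicate numbers, horizontal bars the mean and whiskers the SD of 3 arrays, and each panel spans 2 log2 units around its own centre. The hypoxic control arrays are below all normoxic arrays in every panel, and for HLA-DMB they lie between 7.54 and 7.93 against 8.57 to 8.61.

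The partner chain HLA-DMA could not be read alone. The probe set that the annotation pairs with both HLA-DMA and HLA-DMB read 10.17, 10.14 and 10.33 in normoxia and 9.63, 9.69 and 9.92 in hypoxia. It read 10.84, 10.24 and 10.06 with HIF1A siRNA and 10.25, 10.07 and 10.04 with HIF2A siRNA. As for HLA-DMB, the hypoxic control arrays were the 3 lowest of the 12. On this shared probe set hypoxia minus normoxia was -0.47 (SE 0.18), HIF1A siRNA was 0.64 above control siRNA and HIF2A siRNA 0.38 above it, and none of the 3 passed the test over 22011 probe sets. How much of this signal belongs to each chain is not known.

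CIITA, the master regulator of the set, was 7.60, 7.65 and 7.73 in normoxia and 7.26, 7.20 and 7.36 in hypoxia. It reached 8.11, 8.06 and 7.95 with HIF1A siRNA and 7.73, 7.49 and 7.58 with HIF2A siRNA. The HIF1A siRNA arrays were above the other 9 arrays and the hypoxic control arrays below them, with no overlap. Hypoxia minus normoxia was -0.39 (SE 0.097), 1.31-fold lower. HIF1A siRNA was 0.76 (SE 0.097) above control siRNA, 1.70-fold higher.

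HLA-DOA, the chain of the HLA-DM inhibitor, had its highest values after HIF1A siRNA, at 7.75, 7.35 and 7.57. It read 7.09, 7.07 and 7.21 in normoxia, 6.68, 6.91 and 6.99 in hypoxia and 7.19, 7.08 and 6.99 with HIF2A siRNA. The HIF1A siRNA arrays did not overlap any other group, whereas the HIF2A siRNA arrays overlapped both control groups. Hypoxia differed from normoxia by -0.26 (SE 0.12), and HIF1A siRNA was 0.70 (SE 0.12) above control siRNA, 1.62-fold higher. The gene of the other HLA-DO chain, HLA-DOB, was read only by a probe set shared with TAP2.

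The alpha chain HLA-DRA, which pairs with every HLA-DR beta chain, was 11.57, 11.46 and 11.56 in normoxia and 11.19, 11.19 and 10.97 in hypoxia. With HIF1A siRNA it was 11.82, 11.60 and 11.55, and with HIF2A siRNA 11.42, 11.48 and 11.68. The 3 groups other than hypoxia with control siRNA overlapped each other and lay above it. The difference of hypoxia from normoxia was -0.41 (SE 0.11), while HIF1A siRNA was 0.54 above control siRNA and HIF2A siRNA 0.41 above it.

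The HLA-DP chains, which pair with each other, had small differences between normoxia and hypoxia. HLA-DPB1 read 10.72, 10.55 and 10.64 in normoxia, 10.36, 10.37 and 10.50 in hypoxia, 11.09, 10.88 and 10.62 with HIF1A siRNA, and 10.95, 10.63 and 10.80 with HIF2A siRNA. Its hypoxic control arrays were again the 3 lowest, with a difference from normoxia of -0.23 (SE 0.13), and HIF1A siRNA was 0.45 above control siRNA. HLA-DPA1 read 11.97, 11.96 and 11.92 in normoxia, 11.60, 11.66 and 11.83 in hypoxia, 12.10, 11.94 and 11.67 with HIF1A siRNA, and 11.95, 11.79 and 12.03 with HIF2A siRNA. This alpha chain was the only one of the 7 whose HIF1A siRNA arrays overlapped the hypoxic control arrays, with a difference of 0.21 (SE 0.12).

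CD74, whose product guides class II dimers to endosomes, was 11.82, 11.80 and 11.99 in normoxia and 11.50, 11.54 and 11.59 in hypoxia. It was 12.18, 11.82 and 11.74 with HIF1A siRNA and 11.81, 11.75 and 11.75 with HIF2A siRNA. The hypoxic control arrays were below all others and the other groups overlapped each other, HIF2A siRNA and normoxia only in the span from 11.80 to 11.81. The hypoxic mean differed from the normoxic by -0.33 (SE 0.12), while HIF1A siRNA was 0.37 above control siRNA and HIF2A siRNA 0.23 above it.

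Seen together, the 7 measured genes were all lower in hypoxia than in normoxia, with differences from -0.87 to -0.23 and a median of -0.33 against -0.034 for all genes. After cyclic loess all 7 were still lower, but the differences were as small as -0.079 for HLA-DPB1, -0.12 for HLA-DPA1, -0.19 for CD74 and -0.28 for HLA-DRA. Values did not overlap, and were lower, for 7 of 7, as for 26.3% of all genes. Of the 6 genes beside HLA-DMB the test called 2 lower (HLA-DRA and CIITA, limma, adjusted p under 0.05), where 8.95% of all genes were called lower. These counts come from the contrast that helped to choose the set and nothing is read from them. All calls in hypoxia were 480 higher and 1274 lower, and 1059 higher and 1289 lower after cyclic loess. The call of HLA-DRA was lost when any 1 of the 6 arrays was left out (adjusted p up to 0.130) and that of CIITA without any 1 normoxic array or without hypoxic control replicate 1 or 2 (up to 0.107). CIITA also lost it after quantile normalization (adjusted p = 0.0906) and cyclic loess (0.0583), and HLA-DRA after cyclic loess (0.0869).

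After HIF1A siRNA all 7 genes were higher than with control siRNA in hypoxia, by 0.21 to 1.08, with a median of 0.54 against -0.052 for all genes. Values did not overlap, and were higher, for 6 of 7, against 11.0% of all genes. Of the 6 genes beside HLA-DMB the test called 4 higher (CIITA, HLA-DOA, HLA-DRA and HLA-DPB1), where 0.857% of all genes were called higher, and again nothing is read from a contrast that chose the set. The share of higher genes among all calls was small on the deposited scale, 122 against 1451 lower, and became 726 against 1124 after quantile normalization. HLA-DRA lost its call without hypoxic control replicate 3 (adjusted p = 0.0545), and HLA-DPB1 without any 1 array except HIF1A siRNA replicate 3 (adjusted p up to 0.169). CIITA alone stayed called when the fit held only the 6 arrays of these groups. CD74, not called on the deposited scale, passed under all 3 other scalings (adjusted p from 0.0148 to 0.0254).

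After HIF2A siRNA all 7 genes were again above control siRNA in hypoxia, by 0.22 to 0.56, with a median of 0.33 against -0.007 for all genes. Values did not overlap, and were higher, for 5 of 7 (all but HLA-DPA1 and HLA-DOA), against 4.46% of all genes. None passed the test in limma, where 1 gene of all, EPAS1 itself, or 0.00703%, did. At an unadjusted p under 0.05 there were 4 of the 7, and 502 of all genes. These 3 comparisons share the hypoxic control arrays, so low values on those arrays enter each of them.

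**Figure D2:**
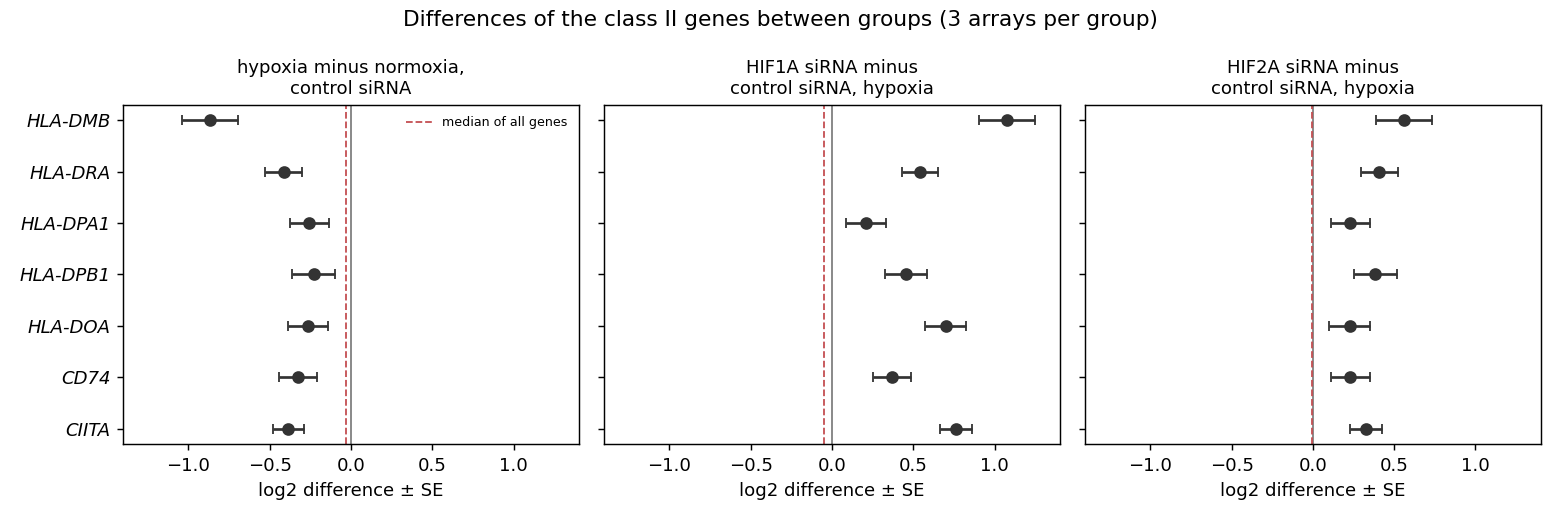
Log2 difference (x axis, point) with its SE (whisker) for the 7 class II genes (y axis) in 3 comparisons of 3 arrays against 3; the dashed line is the median of all genes. All 7 points lie left of 0 for hypoxia and right of 0 for both siRNAs, with HLA-DMB farthest out in each panel; the 3 panels share the hypoxic control arrays.

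The siRNA groups were also compared with each other and with normoxia. CIITA was 0.44 (SE 0.097) higher with HIF1A siRNA than with HIF2A siRNA (limma, adjusted p = 0.0222) and HLA-DOA 0.47 higher (SE 0.12, adjusted p = 0.0391). These were the 2 of 7 genes called higher there, against 0.899% of all genes. All calls were 128 higher and 1214 lower there, and 799 higher and 981 lower after quantile normalization. The other 4 genes beside HLA-DMB differed by -0.022 to 0.14 and were not called. The HIF1A siRNA arrays also served in a comparison that chose the set, CIITA and HLA-DOA included. The p-values and calls here are therefore a description, and nothing is read from them. After quantile normalization the differences of CIITA and HLA-DOA were 0.71 each, and both stayed called under each of the 3 scalings. No call is given for HLA-DMB here because it was picked for its values on the HIF1A siRNA arrays. CIITA lost the call without HIF2A siRNA replicate 3 (adjusted p up to 0.0907), and HLA-DOA without any 1 array except HIF1A siRNA replicate 2 (up to 0.157). No gene was called when the fit held only these 6 arrays.

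Against normoxia, CIITA was 0.38 higher with HIF1A siRNA in hypoxia and HLA-DOA 0.44 higher. Both groups of this comparison served in the choice of the set, and its differences are the sums of those of the 2 choosing comparisons, so they are a description with no p-value. Beside 4.67% of all genes called higher, these 2 of 7 were called, and nothing is read from that. All calls were 664 higher and 4322 lower, and 2241 higher and 2082 lower after quantile normalization. After that normalization CIITA was 0.77 higher and HLA-DOA 0.76 higher. The 7 genes had a median of 0.21 in this comparison against -0.12 for all genes. This all-gene median moved to 0.081 after quantile normalization, a shift of over 0.1, and there all 7 genes were higher, where on the deposited scale the difference for HLA-DPA1 was -0.047.

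With HIF2A siRNA in hypoxia, the 7 genes lay close to normoxia. Their differences ran from -0.31 for HLA-DMB to 0.15 for HLA-DPB1, with a median of -0.039 against -0.045 for all genes. None of the 7 was called, against 9.64% of all genes in limma, and none had an unadjusted p under 0.05, as 3307 of all genes did. All calls were 405 higher and 967 lower, and 855 higher and 985 lower after cyclic loess. This does not show that the levels were equal. HLA-DMB was the only gene of the 7 whose HIF2A siRNA arrays did not overlap the normoxic arrays. Those arrays were lower than normoxia, as for 26.7% of all genes, and nothing is read from this.

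The order of the group means was HIF1A siRNA, normoxia, HIF2A siRNA and hypoxia with control siRNA, from high to low, for HLA-DMB, HLA-DRA, HLA-DOA, CD74 and CIITA. For HLA-DPB1 HIF2A siRNA stood above normoxia, and for HLA-DPA1 both normoxia and HIF2A siRNA stood above HIF1A siRNA. Neighbours in this order often overlapped. Normoxia and HIF2A siRNA overlapped for 6 of the 7 genes, all but HLA-DMB, which was lower, as 26.7% of all genes were. HIF1A siRNA stood clear above normoxia for CIITA and HLA-DOA, 2 of 7, as for 16.7% of all genes. None of the 7 stood clear below normoxia there, where 37.8% of all genes did.

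Within groups, the genes were often highest or lowest on the same array. HIF1A siRNA replicate 1 was the highest of its 3 arrays for 7 of 7 genes, as for 50.0% of all genes. Replicate 3 of that group was the lowest for 6 of 7, as for 63.2% of all genes. Hypoxic control replicate 3 was the highest of its group for 6 of 7, as for 24.1% of all genes. Across the 12 arrays the 21 pairs of genes correlated at r between 0.44 and 0.934, with a median of 0.796. With group means removed the median r was 0.597, and 19 of 21 pairs were above 0. The arrays share groups and each array's scale, so these correlations are descriptions.

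**Figure D3:**
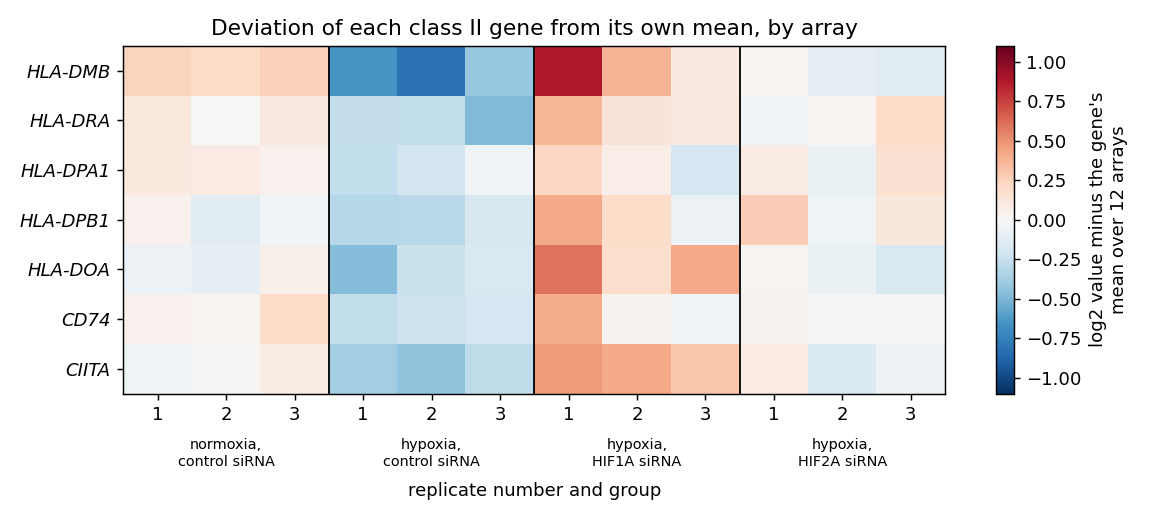
Log2 value of each class II gene (rows) on each array (columns, by group and replicate number) minus that gene's mean over the 12 arrays, as a colour from -1.1 (blue) to 1.1 (red). The hypoxic control columns are blue for all 7 genes, the column of HIF1A siRNA replicate 1 is red for all 7, and HIF1A siRNA replicate 3 is lower than replicate 1 in each row.

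Over all genes and 12 arrays, the 8 most like HLA-DMB by Pearson's r were LRIG1 (r = 0.948), CREB5 (0.942), CD74 (0.934), LRRC20 (0.921), FZD4 (0.908), STARD7 (0.908), CIITA (0.905) and CYC1 (0.894). CD74 ranked 3 and CIITA 7, followed by HLA-DRA at rank 35, HLA-DOA at 42, HLA-DPB1 at 48 and HLA-DPA1 at 126. Among the 100 highest, out of 14232 genes in all, were 5 genes of the set. The set was chosen with results of these arrays known, so nothing is read from that count. With group means removed, r with HLA-DMB ran from 0.248 for HLA-DRA to 0.858 for CD74 within the set. From the other gene lists described below, S100B alone was among those 100. LRIG1, which encodes a transmembrane inhibitor of receptor tyrosine kinases, had group means of 7.54 in normoxia, 6.93 in hypoxia, 7.54 with HIF1A siRNA and 7.18 with HIF2A siRNA.

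Further gene lists were set against the share of all genes called: 8.95% lower and 3.37% higher in hypoxia, and 10.2% lower and 0.857% higher after HIF1A siRNA. The members of a list that were called are named, and nothing is said of a list as a whole from its count. When the fit held only the 6 arrays of the groups compared, the calls after HIF1A siRNA of HLA-DQA2, JAK2, MARCHF8, SPPL2A, CTSH, TAP2, ICAM1 and MS4A1 described below were lost (adjusted p from 0.0595 to 0.184), and those of ICOSLG and S100B were not.

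Other class II chains were poorly covered. Of 9 such genes, HLA-DQA2 and HLA-DQB2 had single-symbol probe sets. HLA-DQA2, an alpha chain gene of restricted expression, read 5.39, 5.34 and 5.93 in hypoxia and 6.31, 6.22 and 5.96 with HIF1A siRNA, 0.61 higher (limma, adjusted p = 0.0347). That call was lost without hypoxic control replicate 1 or 2 or HIF1A siRNA replicate 1 or 2 (adjusted p up to 0.151). In hypoxia HLA-DQA2 differed from normoxia by -0.055 and was not called. HLA-DQB2 was not called in hypoxia or after HIF1A siRNA. The HLA-DRB genes were read by 2 probe sets with several symbols, between 2.09 and 4.82 on all arrays, where the lower quartile of an array was 4.73 to 4.79. In hypoxia these probe sets differed from normoxia by -0.0032 and 0.39. After HIF1A siRNA they differed from control siRNA by 0.56 and 0.47, and after HIF2A siRNA by 0.032 and -0.23. None of these differences passed the test over all probe sets. The probe set shared by HLA-DOB and TAP2 differed by -0.51 in hypoxia (SE 0.18, adjusted p over all probe sets 0.103) and 0.83 higher after HIF1A siRNA (adjusted p = 0.0202).

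Of 7 enhanceosome genes, whose products bind the X and Y boxes, 4 were measured. In hypoxia 1 of the 4 was called lower, where 8.95% of all genes were. None was called after HIF1A siRNA, where 11.1% of all genes were called in either direction. The list medians were -0.36 and -0.25 in these comparisons. RFX5, the DNA-binding subunit of the RFX complex, was 9.19, 9.01 and 9.07 in normoxia and 8.10, 7.83 and 7.91 in hypoxia. It fell by 1.14 (SE 0.20, limma, adjusted p = 0.0039). With HIF1A siRNA it read 8.52, 8.38 and 7.69, and with HIF2A siRNA 7.80, 7.52 and 7.92, so that both siRNA groups stayed below normoxia, with differences of -0.90 (adjusted p = 0.00763) and -1.35 (adjusted p = 0.00199).

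Of 9 genes that carry or restrain the interferon-gamma signal to CIITA, 8 were measured and 3 fell in hypoxia, where 8.95% of all genes were called lower. USF1, a factor that binds the interferon-inducible CIITA promoter, fell by 0.69 (SE 0.12, limma, adjusted p = 0.00371), from 8.77, 8.80 and 8.88 to 8.15, 8.08 and 8.14. IRF1, which acts with it, fell by 0.73 (adjusted p = 0.0170), a call lost without normoxic replicate 1 or 3 or hypoxic control replicate 2 (up to 0.0761). The receptor chain IFNGR1 fell by 0.76 (adjusted p = 0.0440), a call lost without any 1 array except normoxic replicate 2 (up to 0.179). After HIF1A siRNA, IRF1 differed from control siRNA by 0.040 and USF1 by -0.022, neither of them called. The kinase JAK2 fell by 1.07 there (adjusted p = 0.0181), a call lost without hypoxic control replicate 1 or HIF1A siRNA replicate 3 (up to 0.0866).

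Genes of endosomal processing and class II turnover were not called in hypoxia, with 11 of 13 measured and a median of 0.20. After HIF1A siRNA 3 of the 11 fell, where 10.2% of all genes were called lower. MARCHF8, a membrane ubiquitin ligase that can act on class II molecules, fell by 0.92 (SE 0.18, limma, adjusted p = 0.0103), a call lost without hypoxic control replicate 1 (0.0529). SPPL2A, the protease that cleaves the last membrane stub of CD74, fell by 0.64 (adjusted p = 0.0150), lost without hypoxic control replicate 1 or HIF1A siRNA replicate 3 (up to 0.0755), and after quantile normalization its difference was -0.35. The cathepsin gene CTSH fell by 0.57 (adjusted p = 0.0460), lost without any 1 hypoxic control array or HIF1A siRNA replicate 3 (up to 0.188).

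The class I pathway, which presents peptides from the cytosol, had 13 of 20 genes measured and 2 called lower in hypoxia, where 8.95% of all genes were. TAP2, a subunit of the peptide transporter, read 8.11, 8.09 and 8.13 in normoxia and 7.03, 7.01 and 7.30 in hypoxia, and fell by 1.00 (SE 0.11, limma, adjusted p = 0.000293). TAP1, the other subunit, fell by 0.98 (SE 0.14, adjusted p = 0.00135), from 9.26, 9.19 and 9.31 to 8.20, 8.17 and 8.43. Both lie in the class II region of chromosome 6. After HIF1A siRNA TAP2 was 0.40 higher (adjusted p = 0.0403), a call lost without hypoxic control replicate 1 or 2 or HIF1A siRNA replicate 1 or 3 (up to 0.163), and 0.62 higher after quantile normalization, while TAP1 was 0.26 higher and not called. The list medians were -0.11 in hypoxia and 0.026 after HIF1A siRNA.

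Interferon-gamma response genes went both ways. Of 13, 10 were measured, and 6 of these were below the lower quartile on every array. In hypoxia 2 rose and 3 fell, with a median of -0.082. WARS1, a tRNA synthetase gene, rose by 0.61 (limma, adjusted p = 0.0150), lost without normoxic replicate 2 or 3 or hypoxic control replicate 1 (up to 0.0596), and the adhesion gene ICAM1 rose by 0.48 (adjusted p = 0.0190), lost without any 1 array (up to 0.0693). The guanylate-binding protein gene GBP4, one of the 6 below the lower quartile on every array, fell by 0.66 (adjusted p = 0.00219). IRF1, given above, is also on this list. The checkpoint ligand gene CD274 fell by 0.57 (adjusted p = 0.0266), lost without normoxic replicate 1 or 3 or hypoxic control replicate 2 or 3 (up to 0.119). It was dim too, with means of 4.91 in normoxia and 4.33 in hypoxia. After HIF1A siRNA only ICAM1 was called, and fell by 0.53 (adjusted p = 0.0158), lost without hypoxic control replicate 1 (0.0749), and after quantile normalization its difference was -0.28.

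Among 7 co-receptor and co-stimulation genes, all measured, 1 rose and 1 fell in hypoxia. ICOSLG, the ligand of the T cell receptor ICOS, rose by 1.41 (SE 0.14, limma, adjusted p = 0.000175), from 5.64, 5.80 and 5.49 to 7.23, 7.14 and 6.80, and fell by 1.16 after HIF1A siRNA (adjusted p = 0.000976). CD83 fell in hypoxia by 0.70 (SE 0.096, adjusted p = 0.00120) and was 0.14 higher and not called after HIF1A siRNA. No gene of these lists was called after HIF2A siRNA.

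**Figure D4:**
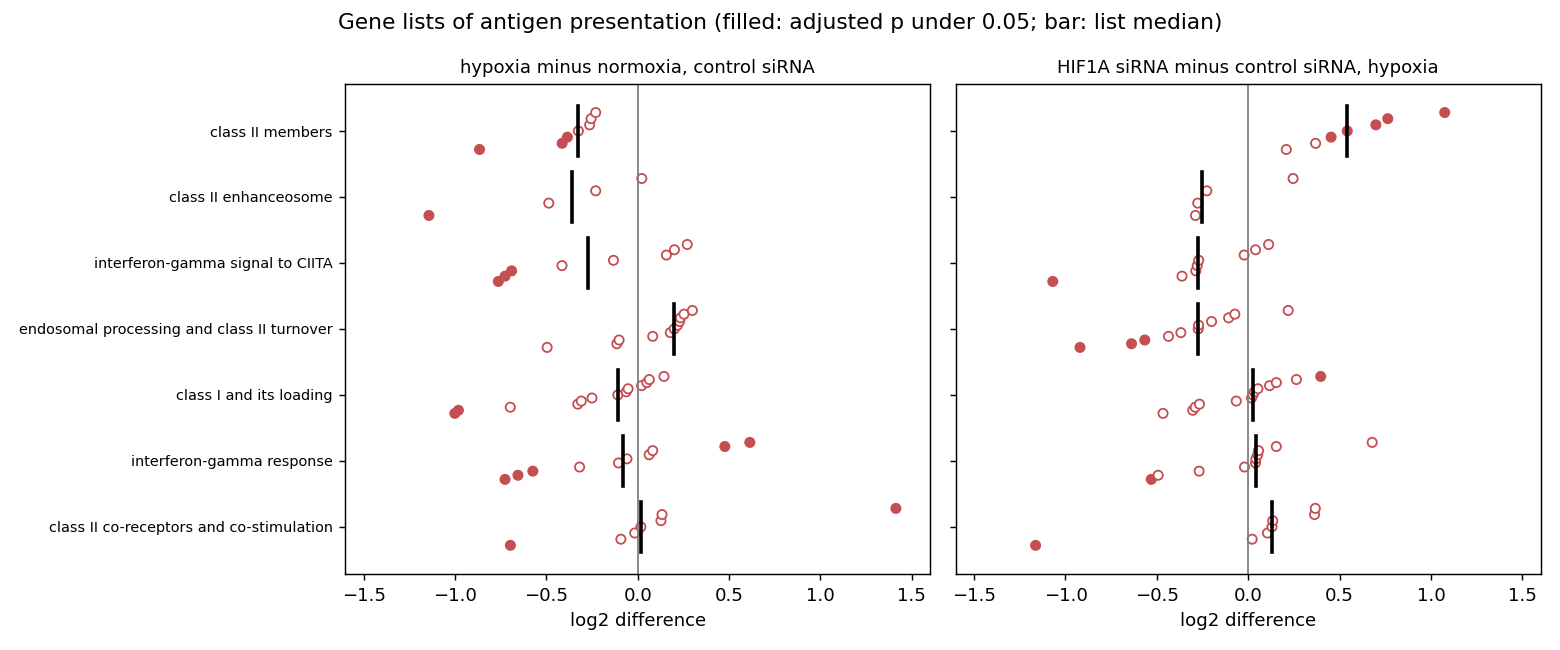
Log2 difference (x axis) of each measured gene in 7 lists of antigen presentation (y axis), for hypoxia minus normoxia (left) and HIF1A siRNA minus control siRNA in hypoxia (right); filled points passed the test, open points did not, the class II points are a description because both comparisons chose that set, black bars are list medians, and the vertical spread within a list only separates the points. The class II bar stands at -0.33 on the left and 0.54 on the right, and the bars of the other lists on the right lie between -0.28 and 0.13.

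Markers of other cells that carry class II molecules were set beside these values. Of 15 macrophage and microglia markers 14 were measured, 5 were below the lower quartile on every array and 1 above the median on every array. None was called in hypoxia or after HIF1A siRNA by limma, and their mean level per array lay between 5.01 and 5.12 in normoxia, 4.92 and 5.18 in hypoxia, 5.10 and 5.18 with HIF1A siRNA, and 4.98 and 5.13 with HIF2A siRNA. These ranges overlap between normoxia and hypoxia. Of 8 B cell markers 7 were measured, with mean levels of 5.69 to 5.70, 5.53 to 5.75, 5.75 to 5.84 and 5.51 to 5.78 in the same order. MS4A1, which encodes CD20, was 0.99 higher after HIF1A siRNA (adjusted p = 0.0169), a call lost without hypoxic control replicate 1 or HIF1A siRNA replicate 3 (up to 0.0794), and FCRLA fell by 0.54 in hypoxia (adjusted p = 0.0309), lost without any 1 array (up to 0.110).

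Of 9 dendritic cell markers 8 were measured, with mean levels of 4.69 to 4.74, 4.62 to 4.71, 4.76 to 4.81 and 4.66 to 4.78. BATF3 alone was called, and fell by 0.53 in hypoxia (limma, adjusted p = 0.0325), lost without any 1 array except hypoxic control replicate 3 (up to 0.135) and after quantile normalization (0.110) or cyclic loess (0.0813). All 8 T and NK cell markers were measured, 5 of them below the lower quartile on every array, and none was called in hypoxia or after HIF1A siRNA. Their mean levels were 4.45 to 4.53, 4.40 to 4.59, 4.69 to 4.70 and 4.39 to 4.60. The mean levels of the last 2 lists were higher on every HIF1A siRNA array than on every hypoxic control array. Probe sets this dim have no certain detection. All arrays came from the LN229 cell line, and PTPRC, a leukocyte gene, read between 2.29 and 2.57 on them. Of the macrophage and microglia markers, 1 was above the median on every array. The part of other cells in the class II values was not tested.

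Of the 9 measured glioblastoma line markers, 2 were called lower in hypoxia and 1 higher after HIF1A siRNA, beside 8.95% and 0.857% of all genes. Only S100B was called in both, in the directions of the class II genes. This gene of a calcium-binding astroglial protein fell in hypoxia by 0.63 (SE 0.13, limma, adjusted p = 0.00909), from 10.90, 10.66 and 10.72 to 10.16, 10.12 and 10.11. It rose by 0.85 after HIF1A siRNA (adjusted p = 0.0029), to 10.99, 11.18 and 10.78, and read 10.45, 10.43 and 10.12 with HIF2A siRNA. NES, the gene of the intermediate filament nestin, fell in hypoxia by 0.41 (adjusted p = 0.0112), lost without normoxic replicate 1 or hypoxic control replicate 2 (up to 0.0576), and after quantile normalization or cyclic loess, where the difference was -0.25 (up to 0.188). None of the other 7 measured markers of this list was called in either comparison, and they did not all move in these directions. VIM read 12.15, 12.04 and 12.13 in normoxia, 12.50, 12.47 and 12.21 in hypoxia and 11.89, 12.24 and 11.81 with HIF1A siRNA. The list medians were -0.091 in hypoxia and 0.24 after HIF1A siRNA.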

How the data were processed

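RNA was hybridised to Affymetrix exon arrays, 12 in all. The deposited values are 1 per probe set and array and were read as log2 expression from their range of 1.14 to 14.3, so base 2 is inferred. Partek and the build hg18 are named in the submitters' processing notes. How background, summarization and normalization were handled is not given in the sources used here, and no detection call was used, so dim values have no floor.

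The platform annotation pairs 14432 of 22011 probe sets with 1 symbol, 2408 with several and 5171 with none here. RefSeq (GRCh38.p14) held 14404 of the gene identifiers, and 0 symbols changed. Of several single-symbol probe sets for a gene, the highest mean over 12 arrays was used, which left 14232 genes. All probe sets were fitted with limma 3.58.1 (lmFit, eBayes), with 1 mean per group, all 12 arrays sharing 1 spread and no replicate block. P-values were adjusted by Benjamini-Hochberg over all genes, or over all probe sets for those with several symbols, and called under 0.05. The scripts were tested on simulated data. The software was R 4.3.3, data.table (release 1.17.8) and, for figures, matplotlib 3.10.9.

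The genes, the lists and the motif letters were chosen with earlier results of these data known. Named were the members, the targeted genes, at most 4 called genes per list by largest difference, list genes called in both of the first 2 comparisons, and the 8 genes most correlated with HLA-DMB. MS4A1, FCRLA, BATF3, S100B and NES were named by the same rule applied to the marker lists after their values were seen. Alternatives were quantile, median and cyclic loess scaling, a replicate block, fits on 2 groups, a filter on dim genes, averaged probe sets, an intensity trend in eBayes and leaving out each array.

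Same-numbered arrays of different groups correlated, after removal of group means, between -0.488 and 0.597 (median 0.063, 6 of 18 over 0.1), and differently numbered ones between -0.64 and 0.623, so the numbers were not treated as pairs.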

Additional observations from a re-analysis of the deposited data

How the results depend on the processing

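The direction of all 7 genes in hypoxia, after HIF1A siRNA and after HIF2A siRNA (each against its control) was the same under all 3 scalings. Counts of the set below include HLA-DMB, which was picked on these arrays, so they show only how calls move with the setting. Genes of the set called in hypoxia numbered 3, 1 with cyclic loess and 1 to 2 when 1 array was left out. Called after HIF1A siRNA were 5, 1 with only the 2 groups fitted and 3 to 5 with 1 array left out. For HIF1A siRNA against HIF2A siRNA 2 were called, 1 with the replicate block, 0 with only the 2 groups and 0 to 2 with 1 array left out. There CIITA and HLA-DOA stayed called under each of the 3 scalings. For HIF1A siRNA against normoxia 2 were called, 5 with quantile, 4 with median and 5 with cyclic loess scaling, 1 with only the 2 groups, and 0 to 2 with 1 array left out. The 2 remaining comparisons gave 0 in every setting run. With the replicate block HLA-DRA lost its call in hypoxia, HLA-DPB1 after HIF1A siRNA and HLA-DOA between the siRNAs, and HLA-DQA2, CTSH and TAP2 lost theirs after HIF1A siRNA (adjusted p from 0.0524 to 0.0538). HLA-DMB with HIF1A siRNA minus normoxia was 0.65 with quantile and 0.63 with cyclic loess scaling, and from -0.0064 to 0.39 with 1 array left out. With HIF2A siRNA minus normoxia it was -0.15 with either. Over all genes, calls after HIF1A siRNA numbered 1573, 137 with only the 2 groups, and 390 to 2648 with 1 array left out. In hypoxia they were 1754, or 806 to 1410 with 1 array left out, and after HIF2A siRNA 1, or up to 4. Between the siRNAs they were 1342, 127 with only the 2 groups, and 268 to 2557. Against normoxia they were 4986 with HIF1A siRNA, 3250 with only the 2 groups, and 2361 to 5042, and with HIF2A siRNA 1372, 2131 and 588 to 932. Where a count moved, the cause was not tested. With 3 arrays a group and no detection calls, small differences of dim probe sets could not be resolved.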
